A study of Mus musculus with 6 samples.

Results

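The genes that encode Polycomb, trithorax and DNA methylation proteins were examined for nucleosome-sized peaks in mouse sperm. The 55 genes were listed by their known function, with earlier results of these data known. They are 55 of the 21887 protein-coding genes of the RefSeq table on chromosomes 1 to 19, X and Y. The list held 11 genes of Polycomb repressive complex 2 (PRC2), 21 genes of Polycomb repressive complex 1 (PRC1), 15 genes of enzymes that write or erase H3K4 and H3K27 methylation and their partners, and 8 genes of DNA methylation and its oxidation.

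Sperm came from the epididymis and vas deferens of C57BL6 wild-type mice and of K49A mutants, and the design calls the libraries of a genotype biological replicates. Both the 4 wild-type libraries (WT 1 to 4) and the 2 libraries of the mutant (K49A 1 and 2) were made by the same protocol. In the mutant, lysine 49 of protamine 1, one of the small basic proteins that pack sperm DNA, is replaced by alanine. For each genotype 30 M sperm were treated with DNase I, permeabilised, loosened with DTT and digested with 5 and then 15 units of micrococcal nuclease (MNase), after which mononucleosome-sized DNA was cut from a gel. MNase digests DNA that is not wrapped in nucleosomes. The number and age of the animals were not given in the sources used here, so p-values measure only the spread between these libraries.

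The deposited data were 6 lists of broad peaks in mm10 coordinates. WT lists held between 11313 and 27903 peaks and K49A lists held 700 and 1017. The WT peaks covered 5.76 to 14.5 Mb, those of K49A 0.274 and 0.409 Mb. WT 1 had the shortest WT list. The lists hold no read counts, so depth is unknown and no limit can be set on a gene without a peak. The weakest peak kept also differed between lists. Its −log10 p was between 3.32 and 3.75 in the WT lists, 4.73 in K49A 1 and 4.55 in K49A 2.

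PRC2 methylates lysine 27 of histone H3 (H3K27), and PRC1 binds that mark through its CBX subunits and ubiquitinates histone H2A. Both keep developmental genes silent. Trithorax-type KMT2 and SETD1 enzymes methylate lysine 4 of H3 (H3K4) at promoters and enhancers, DNMT enzymes methylate CpG dinucleotides, and TET enzymes oxidise methylcytosine. In mammalian sperm most histones are replaced by protamines, and the nucleosomes that remain are found often at CpG-rich promoters.

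The DNA around some of these starts is shown first, because CpG content was the sequence feature that could be set beside the peaks. Each run holds 250 bases before and 50 after a listed transcription start, 5′ to 3′ on the gene's strand, from RefSeq (GRCm38.p6), with each CG dinucleotide in capitals. In each of the 4 groups the gene was taken whose WT peaks ranked highest among those lying over a start in the table.

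Phf1, chr17:26932877-26933176, plus strand: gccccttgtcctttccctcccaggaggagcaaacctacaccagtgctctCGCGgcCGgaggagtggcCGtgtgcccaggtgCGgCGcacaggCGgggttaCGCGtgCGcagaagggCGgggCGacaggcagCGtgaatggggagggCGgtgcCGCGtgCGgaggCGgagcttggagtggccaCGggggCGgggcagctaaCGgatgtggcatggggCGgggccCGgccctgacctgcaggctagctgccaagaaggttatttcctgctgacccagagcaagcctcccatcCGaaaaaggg

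Phc1, chr6:122340178-122340477, minus strand: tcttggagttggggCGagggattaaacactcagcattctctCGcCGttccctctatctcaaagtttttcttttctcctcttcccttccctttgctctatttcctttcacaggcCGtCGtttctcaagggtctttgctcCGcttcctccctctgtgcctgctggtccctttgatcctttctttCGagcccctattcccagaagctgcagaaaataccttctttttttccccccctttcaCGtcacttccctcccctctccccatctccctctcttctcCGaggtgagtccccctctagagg

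Kmt2a, chr9:44881240-44881539, minus strand: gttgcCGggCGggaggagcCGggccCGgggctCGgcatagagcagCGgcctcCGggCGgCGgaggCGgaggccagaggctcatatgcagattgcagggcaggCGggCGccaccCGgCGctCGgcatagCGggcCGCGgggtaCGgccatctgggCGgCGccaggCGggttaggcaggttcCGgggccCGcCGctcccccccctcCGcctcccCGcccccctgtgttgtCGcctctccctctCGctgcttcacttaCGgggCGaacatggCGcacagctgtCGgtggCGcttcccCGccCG

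Tet2, chr3:133544341-133544640, minus strand: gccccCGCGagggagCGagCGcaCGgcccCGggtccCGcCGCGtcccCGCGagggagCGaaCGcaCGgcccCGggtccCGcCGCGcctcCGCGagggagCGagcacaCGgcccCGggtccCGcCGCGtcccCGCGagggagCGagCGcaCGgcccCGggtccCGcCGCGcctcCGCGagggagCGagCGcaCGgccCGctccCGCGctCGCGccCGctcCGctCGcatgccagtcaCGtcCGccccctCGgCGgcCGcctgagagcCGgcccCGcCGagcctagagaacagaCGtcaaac

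These 4 starts all lay in peaks of at least 3 WT libraries. Their CG content was not alike. The stretch held 24 CG dinucleotides at Phf1, 9 at Phc1, 36 at Kmt2a and 57 at Tet2. The observed number over the number expected from the C and G content (CpG observed/expected) was 0.698, 0.534, 0.839 and 1.17 in the same order.

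The next set shows starts with no WT peak near the gene's outer end, from each group that had such a gene. In each group the first such gene in alphabetical order was taken. An inner start of Dnmt1 that did have peaks is also shown.

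Bcor, chrX:12160306-12160605, minus strand: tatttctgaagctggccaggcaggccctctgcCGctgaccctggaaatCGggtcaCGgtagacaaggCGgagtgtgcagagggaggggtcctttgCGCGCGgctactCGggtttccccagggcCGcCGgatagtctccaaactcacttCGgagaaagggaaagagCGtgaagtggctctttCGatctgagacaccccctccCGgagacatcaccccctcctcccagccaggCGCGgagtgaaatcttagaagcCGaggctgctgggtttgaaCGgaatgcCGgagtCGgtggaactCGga

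Kdm5c, chrX:152232977-152233276, plus strand: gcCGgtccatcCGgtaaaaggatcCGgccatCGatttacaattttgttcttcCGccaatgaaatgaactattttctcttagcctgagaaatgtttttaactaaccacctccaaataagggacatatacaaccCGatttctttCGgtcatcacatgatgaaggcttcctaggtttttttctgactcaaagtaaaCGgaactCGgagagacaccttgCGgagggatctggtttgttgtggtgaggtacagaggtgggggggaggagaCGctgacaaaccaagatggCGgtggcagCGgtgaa

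Dnmt1 outer start, chr9:20959839-20960138, minus strand: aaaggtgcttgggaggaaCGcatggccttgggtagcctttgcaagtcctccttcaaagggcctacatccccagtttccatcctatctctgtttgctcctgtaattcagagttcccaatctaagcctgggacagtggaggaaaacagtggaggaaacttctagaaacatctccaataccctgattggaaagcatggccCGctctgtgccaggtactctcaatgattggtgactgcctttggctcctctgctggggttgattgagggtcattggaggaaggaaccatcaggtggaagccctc

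Dnmt1 inner start, chr9:20952574-20952873, minus strand: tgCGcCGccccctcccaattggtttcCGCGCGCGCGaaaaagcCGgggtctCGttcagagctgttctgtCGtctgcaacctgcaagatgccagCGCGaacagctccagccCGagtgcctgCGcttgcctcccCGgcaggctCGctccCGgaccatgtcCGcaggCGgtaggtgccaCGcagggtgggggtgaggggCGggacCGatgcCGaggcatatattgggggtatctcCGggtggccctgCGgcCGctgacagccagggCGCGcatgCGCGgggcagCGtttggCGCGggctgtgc

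Bcor held 21 CG dinucleotides (observed/expected 0.756) and Kdm5c held 13 (0.796). By observed/expected these starts without a peak were no poorer in CG than the Phf1 and Phc1 starts. Both held fewer CG dinucleotides than Phf1. Both genes lie on chromosome X. There 1.14% of protein-coding genes had a peak within 1 kb of an end in all 4 WT and no K49A libraries, against 22.7% elsewhere. The outer Dnmt1 start held 2 (0.101). The inner Dnmt1 start held 33 (0.910) and was chosen after its peaks were seen.

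Peaks within 1 kb of either end of a gene were found at most of the 55 genes in WT and at none of them in K49A. WT 1 to 4 had such a peak at 28, 39, 39 and 43 of the 55, a mean of 67.7% ± 11.7 (SD, n = 4). Over all protein-coding genes the shares were 28.8%, 43.0%, 46.3% and 49.9%, so the listed genes stood above the background in each WT library. K49A 1 and 2 had 0 of 55. The background there was 0.429% and 0.334%, which over 55 genes comes to 0.236 and 0.183 genes, so 0 of 55 is what lists this short would give and holds no result about these genes.

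A gene is called WT-only here when its end had a peak in every WT list and in no K49A list. By that rule 25 of the 55 genes (45.5%) were WT-only, against 21.8% of all protein-coding genes. A further 11 genes had one in 3 WT libraries, 6 in 2 and 4 in 1. The remaining 9 genes had none in any library (16.4%, against 40.1% of all protein-coding genes). Among 46 other genes of the same pathways, such as cofactors, readers and further demethylases, 16 (34.8%) were WT-only and 7 had no end peak in any library. These other genes had end peaks at 50.0%, 63.0%, 71.7% and 69.6% in WT 1 to 4, a mean of 63.6%. The 55 genes had 50.9%, 70.9%, 70.9% and 78.2%, so in WT 3 the other genes stood higher. A high share in WT is thus not particular to the listed genes. These shares are descriptions of gene lists and carry no test.

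**Figure D1:**
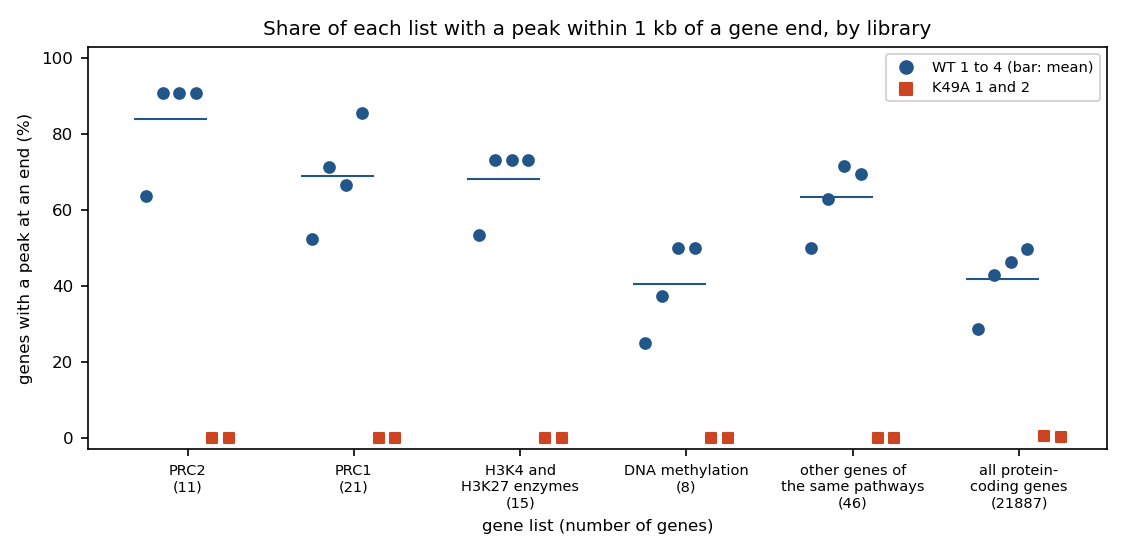
The plot gives, for each gene list on the horizontal axis, the percent of its genes with a peak within 1 kb of a gene end in each library (WT circles, K49A squares, bar for the WT mean). WT 1 is lowest in every list, PRC2 has the highest WT mean (84.1%), DNA methylation genes the lowest of the 4 groups (40.6%), and the K49A points lie at or near 0.

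The 4 groups differed in these counts. PRC2 genes had a WT mean of 84.1% ± 13.6 (SD, n = 4) and 7 of 11 in all 4 WT libraries. PRC1 genes had 69.0% ± 13.7 and 10 of 21. The H3K4 and H3K27 enzymes had 68.3% ± 10 and 6 of 15. DNA methylation genes had 40.6% ± 11.97 and 2 of 8, against 42.0% ± 9.23 for all protein-coding genes. With 8 to 21 genes in a group, the order of the groups rests on a few genes and was not tested. It also turned with the peak limit. At a −log10 q of at least 2, WT-only genes numbered 2 of 11 in PRC2, 5 of 21 in PRC1, 2 of 15 among the enzymes and 2 of 8 among DNA methylation genes. Over all protein-coding genes the WT-only share at that limit was 8.34%.

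**Figure D2:**
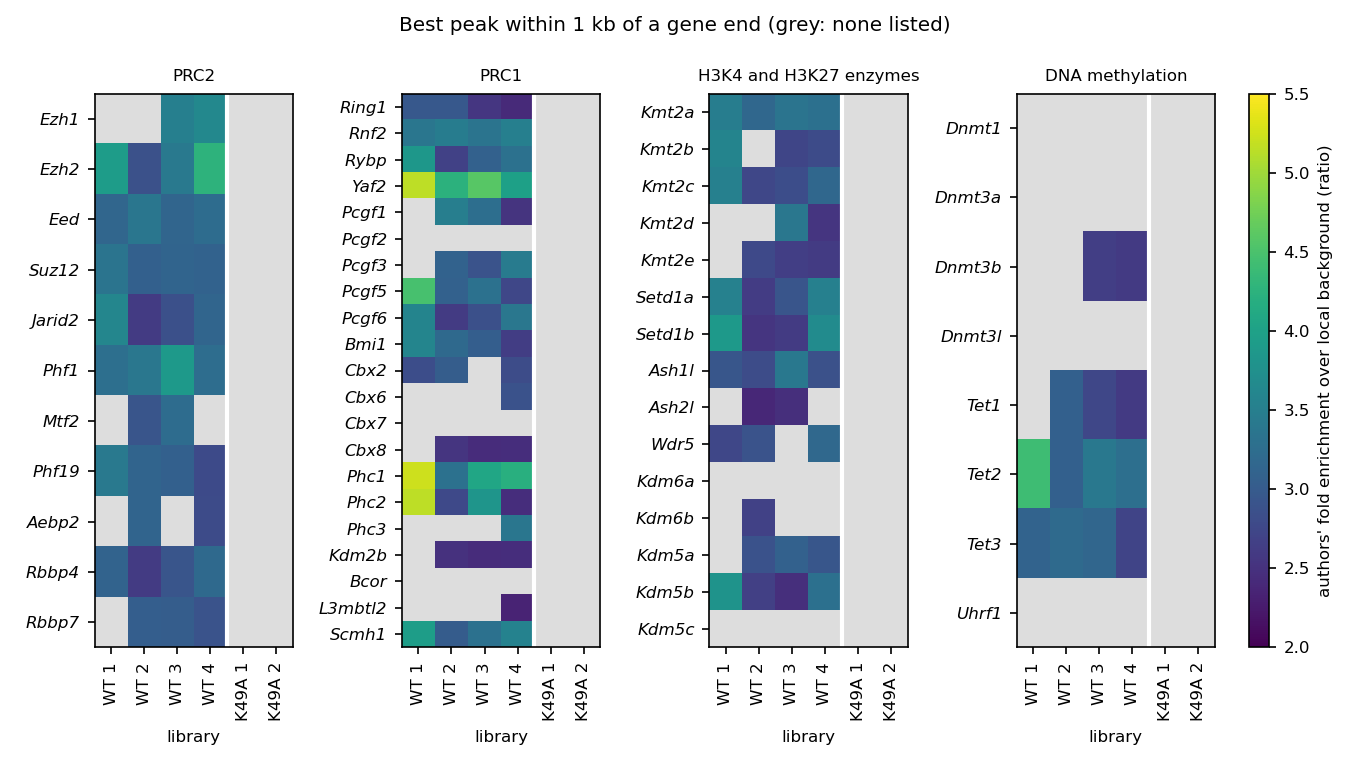
The grids give the authors' fold enrichment (a ratio, color scale 2 to 5.5) of the best peak within 1 kb of a gene end, with genes in rows and the 6 libraries in columns, grey where no peak was listed. All K49A cells are grey, and among PRC2 genes only Ezh1, Mtf2, Aebp2 and Rbbp7 have a grey WT cell.

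The fold is the authors' own value for a peak, a ratio of its pileup to the local background of the same library. It describes a peak within its own list, and no genotype comparison of folds was tested. Among the 25 genes with a peak in all 4 WT libraries, the mean fold ran from 2.72 at Ring1 to 4.50 at Yaf2, with a median of 3.18. The median of all protein-coding genes of that class was 3.17, so the listed genes had peaks more often but not of a higher fold. Some of these genes rest on a peak near the end of a list, that is at a low percentile by −log10 q. In WT 2 the best end peak stood at percentile 3.23 at Rbbp4, 2.86 at Pcgf6, 1.97 at Setd1a and 9.92 at Kmt2c. Ring1 and Phc2 had such peaks too, as given below.

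All 11 PRC2 genes had an end peak in at least 2 WT libraries. Among all 21887 protein-coding genes, 4764 had one in all 4 WT libraries, 3330 in 3 and 2412 in 2, with none in K49A. The catalytic subunits differed from each other. Ezh2, the main H3K27 methyltransferase of dividing cells, had peaks in all 4 WT libraries, with folds of 3.94, 2.87, 3.41 and 4.26 (mean 3.62 ± 0.613, SD, n = 4). Ezh1, its paralog in resting cells, had peaks in WT 3 (3.51) and WT 4 (3.63) and none listed in WT 1 or WT 2.

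The core subunits Suz12 and Eed, which the catalytic subunit needs for activity, had peaks in all 4 WT libraries. At Suz12 the folds were 3.35, 3.08, 3.13 and 3.10 (3.16 ± 0.126). The stretch common to the 4 peaks was the widest of all 25 genes, 985 bp at chr11:79992808-79993792, and it covers the gene start at position 79993106. At Eed the folds were 3.15, 3.38, 3.14 and 3.23. Of the histone-binding subunits, Rbbp4 had peaks in all 4 WT libraries (3.12, 2.61, 2.92 and 3.20). Rbbp7, on chromosome X, had them in WT 2 to 4 (3.05, 3.03 and 2.90).

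The Polycomb-like accessory genes, whose proteins help to bring PRC2 to CpG islands, were split. Phf1 had folds of 3.27, 3.39, 3.88 and 3.25 (3.45 ± 0.295), with a common stretch at chr17:26933056-26933350 over the start shown above. Phf19 had 3.41, 3.13, 3.07 and 2.79 (3.10 ± 0.256). Mtf2 had peaks in WT 2 (2.92) and WT 3 (3.23) only. In each of these genes the WT libraries with a peak had similar folds, and the difference between genes lay in how many libraries listed one.

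Jarid2 and Aebp2 belong to the other form of PRC2. Jarid2 had end peaks in all 4 WT libraries (3.60, 2.61, 2.86 and 3.14, 3.05 ± 0.423), and all 4 lay upstream of its outer listed start, with midpoints at -540, -491, -260 and -634 bp from it. Aebp2 had end peaks in WT 2 (3.12) and WT 4 (2.80). Its stretch with many CG dinucleotides is not at the gene end. A listed start 2455 bp inside the gene has 21 CG dinucleotides (observed/expected 0.774), against 4 (0.232) at the outer start, and all 4 WT libraries had a peak within 1 kb of the inner start.

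Of the 21 PRC1 genes, 18 had an end peak in at least 1 WT library and 3 had none. Over all protein-coding genes, 40.1% had none in any library. The E3 ligases of PRC1, Ring1 and Rnf2, both had them in all 4. Rnf2 had folds of 3.38, 3.47, 3.35 and 3.51 (3.43 ± 0.0774), the smallest spread among genes with peaks in all 4. Ring1 had 2.96, 2.96, 2.55 and 2.42 (2.72 ± 0.279), and its 4 peaks shared 70 bp, the shortest common stretch. By −log10 q the Ring1 peaks stood at percentile 12.3, 54.5, 1.66 and 38.6 of the WT 1 to 4 lists. Those of Rnf2 stood at 60.8, 92.7, 77.7 and 87.9.

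Yaf2, a subunit of PRC1 forms that lack CBX proteins, had the highest mean fold of the 55 genes. Its folds were 5.14, 4.25, 4.60 and 3.99 (4.50 ± 0.497), and by −log10 q its peak stood at percentile 98.2, 97.5, 98.9 and 98.1 of its list. The common stretch was 543 bp at chr15:93336169-93336711, near the high end of the gene. Rybp, its paralog, had 3.85, 2.68, 3.09 and 3.31. Both genes stood in the 4 WT lists, and Yaf2 was the higher in each.

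The PCGF genes encode the partner that sets the type of PRC1. Bmi1 (PCGF4) had folds of 3.60, 3.20, 3.04 and 2.63 (3.12 ± 0.400), Pcgf5 had 4.48, 3.08, 3.30 and 2.75 (3.40 ± 0.754), and Pcgf6 had 3.58, 2.61, 2.85 and 3.39. Pcgf1 and Pcgf3 had peaks in WT 2 to 4. Pcgf2 (MEL18), the closest relative of Bmi1, had no end peak, but its listed start 2786 bp inside the outer end had peaks within 1 kb in WT 1, WT 3 and WT 4.

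The chromodomain genes of canonical PRC1, which read H3K27 methylation, varied in the number of WT libraries with an end peak. Cbx2 and Cbx8 had end peaks in 3 WT libraries, Cbx6 in WT 4 and Cbx7 in none. The best Cbx8 peaks lay at the finish of the gene in WT 2 to 4. The inner listed start of Cbx7, 38497 bp from the outer end, had peaks in WT 1 and WT 4. None of these 4 genes had an end peak in all WT libraries.

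Phc1 and Phc2, polyhomeotic genes whose proteins polymerise, had peaks in all 4 WT libraries. Phc1 had folds of 5.23, 3.31, 4.08 and 4.21 (4.21 ± 0.789), the highest mean after Yaf2, at chr6:122339463-122340086. Phc2 had 5.15, 2.77, 3.82 and 2.45 (3.55 ± 1.22), the widest spread given here. By −log10 q its end peak stood at percentile 4.43 of the WT 2 list and 0.337 of the WT 4 list. An inner listed start of Phc2, 72916 bp from the outer end, had peaks in all 4 WT libraries (3.22, 3.37, 4.06 and 2.77). These folds were lower than at the end in WT 1 and higher in WT 2 to 4. Phc3 had a peak in WT 4 only (3.37).

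The remaining PRC1 genes also differed. Kdm2b, which binds unmethylated CpG through a zinc finger, had end peaks in WT 2 to 4 (2.49, 2.44 and 2.46). An inner listed start of Kdm2b, 88920 bp from the outer end, had peaks in all 4 WT libraries with folds of 3.51, 3.04, 3.07 and 3.19, higher than at the end in WT 2 to 4. Scmh1 had end peaks in all 4 (3.94, 3.01, 3.31 and 3.55), with no base common to the 4. L3mbtl2 had a peak in WT 4 only (2.35), at the finish of the gene.

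Bcor, a PRC1 subunit gene on chromosome X, had no peak at its ends or listed starts. It had 6 peak regions inside the gene, of which 1 was listed in all 4 WT libraries (chrX:12087189-12087746, with folds of 3.05, 2.93, 2.89 and 2.84). The signal of this gene lay in the interior, at 41.0% of its length from the low end in WT 1.

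**Figure D3:**
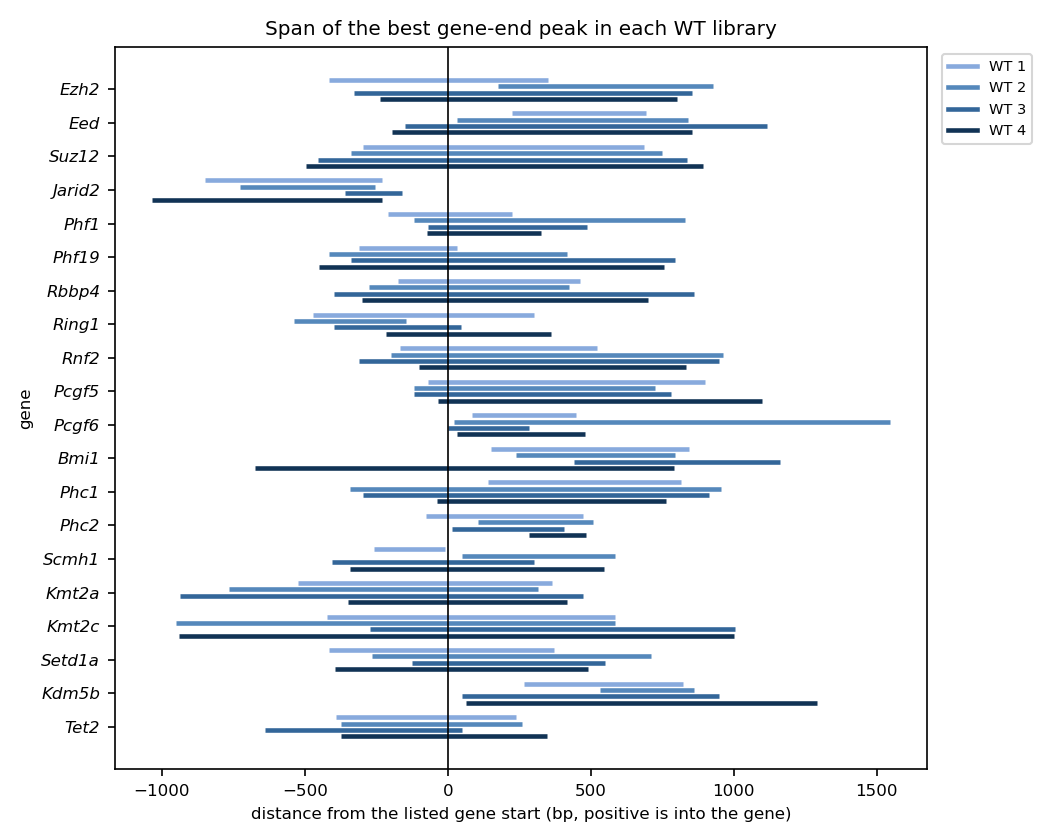
Bars give the span of the best gene-end peak in each WT library, as distance in bp from the outermost listed start, for the genes with an end peak in all 4 WT libraries and a listed start within 1 kb of that end. Most bars cross or follow the start, while those of Jarid2 lie before it and those of Kdm5b and Pcgf6 after it.

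Of the 15 genes of H3K4 and H3K27 enzymes, 13 had an end peak in at least 1 WT library and 2 had none, against 40.1% of all protein-coding genes with none in any library. Among the H3K4 methyltransferases, Kmt2a (MLL1) had folds of 3.49, 3.17, 3.34 and 3.29 (3.32 ± 0.131), with 664 bp in common at chr9:44880974-44881637 over its start. Kmt2c, which acts mainly at enhancers, had 3.52, 2.74, 2.83 and 3.17 (3.07 ± 0.355). Setd1a had 3.54, 2.63, 2.92 and 3.53 (3.15 ± 0.457) and Setd1b, the paralog, had 3.88, 2.54, 2.61 and 3.69 (3.18 ± 0.703).

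In Setd1a and Setd1b, WT 1 and WT 4 gave the higher folds and WT 2 and WT 3 the lower ones. Kmt2b and Kmt2e had end peaks in 3 WT libraries each. Kmt2d had them in WT 3 (3.38) and WT 4 (2.54), both at the finish of the gene. The listed start of Kmt2d, 2872 bp inside the outer end, had peaks in all 4 WT libraries with folds of 5.10, 2.83, 2.99 and 3.38.

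The partner genes followed no single pattern. Wdr5, a scaffold of the H3K4 methyltransferase complexes, had end peaks in WT 1, WT 2 and WT 4 (2.74, 2.90 and 3.19). Ash2l, another core subunit, had weak end peaks in WT 2 (2.39) and WT 3 (2.47) and an interior region in all 4 WT libraries at chr8:25840300-25841527. Ash1l, a trithorax-group H3K36 methyltransferase, had end peaks in all 4 (2.94, 2.81, 3.41 and 2.87).

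Among the demethylase genes, end peaks were missing most often at Kdm5c and Kdm6a, both on chromosome X. Of the H3K4 demethylases, Kdm5b had peaks in all 4 WT libraries (3.79, 2.66, 2.48 and 3.29, 3.05 ± 0.603), each starting 50 to 531 bp after the gene start. Kdm5a had them in WT 2 to 4. Kdm5c, on chromosome X, had no peak at an end or in the body in any library.

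The H3K27 demethylase Kdm6b had an end peak in WT 2 only (2.68). Kdm6a, its relative on chromosome X, had none at an end, and peaks near its listed start 1713 bp inside the gene in WT 1 and WT 3. Neither of these genes was WT-only by its ends.

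Among DNA methylation genes, Tet2 and Tet3 were WT-only by their ends. Tet2 had folds of 4.41, 3.08, 3.41 and 3.27 (3.54 ± 0.596), with 423 bp in common at chr3:133544341-133544763. Tet3 had 3.11, 3.21, 3.15 and 2.72 (3.05 ± 0.226) at its outer end. The only listed start of Tet3 lies 15530 bp inside that end and had peaks within 1 kb in WT 2 to 4. Tet1 had peaks in WT 2 to 4 (3.08, 2.74 and 2.59).

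Of the DNMT genes, only Dnmt3b, a de novo methyltransferase, had an end peak, in WT 3 (2.65) and WT 4 (2.60). Dnmt3a, the other de novo enzyme, had none at its ends. A listed start 5601 bp inside Dnmt3a, with 47 CG dinucleotides (observed/expected 1.06), had peaks in all 4 WT libraries with folds of 3.33, 2.89, 2.93 and 2.75, between chr12:3806502 and 3808426. Dnmt3a thus had no listed peak at its ends and one at an inner start in each WT library.

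Dnmt1, the maintenance methyltransferase, had no peak at its outer start. At its inner start shown above, WT 3 (3.03) and WT 4 (2.48) had a peak, and both peaks begin at the same base, chr9:20952309. Uhrf1, which brings DNMT1 to replicated DNA, had no peak at an end, at a listed start or in the body in any library. Its listed start 976 bp into the gene has 33 CG dinucleotides (observed/expected 0.959), so a start rich in CG was without a listed peak there. Dnmt3l, the cofactor of the de novo enzymes in germ cells, had none either, and its 3 listed starts hold 3 to 6 CG dinucleotides.

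Thus of the 9 genes without an end peak, 5 had a WT peak at an inner listed start (Pcgf2, Cbx7, Kdm6a, Dnmt1 and Dnmt3a). The other 4 (Bcor, Kdm5c, Uhrf1 and Dnmt3l) had none at any listed start. For Pcgf2, Cbx7 and Kdm6a the inner start is the only listed one. All 3 listed starts of Dnmt3a lie inside the gene, and the outermost, 5421 bp from the outer end, had peaks in all 4 WT libraries. Over all protein-coding genes, 8787 had no end peak in any library and 8007 had none at an end or any listed start. When a peak at either end or at any listed start was counted, 29 of 55 genes (52.7%) were WT-only, against 24.2% of all protein-coding genes. Aebp2, Kdm2b, Kmt2d and Dnmt3a were the genes added. This count was chosen after the data were seen.

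CpG content was read at the outermost listed start, which the RefSeq promoter table gives for 44 of the 55 genes and 17492 protein-coding genes. Kmt2e, Kdm6b, Yaf2, Ash1l, Kdm5a, Pcgf1, Rybp, Setd1b, Ash2l, Cbx2 and Kmt2b are not in the table. A promoter was called CpG-rich at an observed/expected of at least 0.6 and a GC content of at least 50%. By this rule 36 of the 44 genes (81.8%) were CpG-rich, against 45.8% of all genes in the table. The median observed/expected was 0.940 in PRC2 genes, 0.761 in PRC1 genes, 0.852 in the enzymes and 0.592 in DNA methylation genes, of which 4 of 8 were CpG-rich. Peaks were read at the same starts of the same genes. The mean share with a WT peak was 88.6% in PRC2 genes and 67.6% in PRC1 genes. It was 78.1% in the enzymes and 50.0% in DNA methylation genes, against 41.8% of all genes in the table. These medians and shares rest on 17 of the 21 PRC1 genes and only 8 of the 15 enzyme genes. PRC2 and DNA methylation genes are all in the table. By gene ends, with every gene counted, the WT means were 69.0% in PRC1 genes and 68.3% in the enzymes. The relation of these shares to CpG content was not tested.

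Counting peaks within 1 kb of the outermost listed start, 23 of the 44 genes (52.3%) were WT-only, against 22.2% of genes in the table. Among CpG-rich promoters the share was 21 of 36 (58.3%), against 39.8% of all CpG-rich promoters. Among the others it was 2 of 8, against 7.40%. The 2 were Aebp2, whose CpG-rich inner start is close by, and Phc1. Read within CpG-rich promoters, the distance between the listed genes and the background was smaller than over all genes, and it was not tested.

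**Figure D4:**
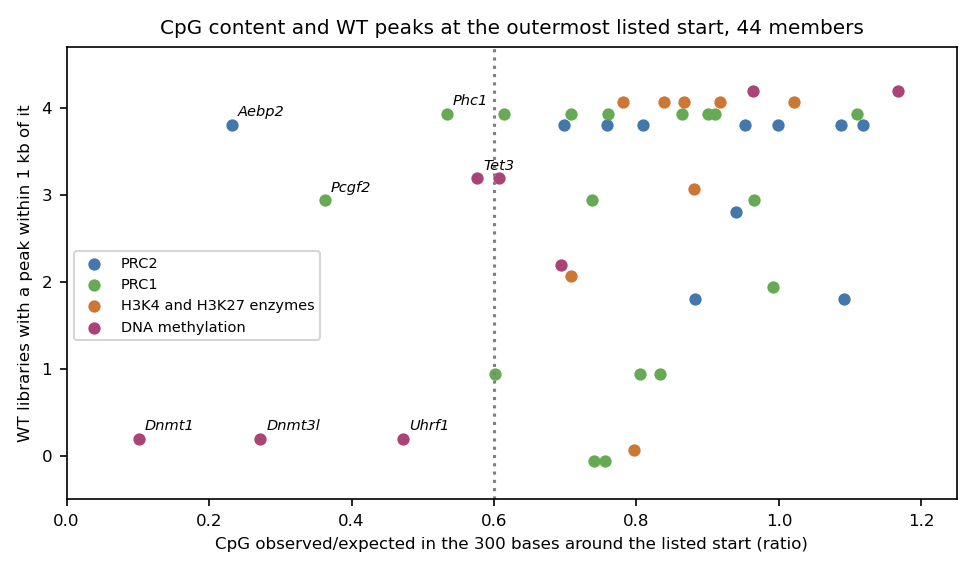
Each point is one of the 44 genes in the promoter table, with CpG observed/expected in 300 bases around its outermost listed start on the horizontal axis and the number of WT libraries with a peak within 1 kb of it on the vertical axis (groups are offset slightly in height), and the dotted line marks 0.6. Genes right of the line are found at every height from 0 to 4, and left of it Dnmt1, Dnmt3l and Uhrf1 are at 0, Pcgf2 and Tet3 at 3 and Aebp2 and Phc1 at 4.

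The 6 genes with no WT peak at the outermost start had a median observed/expected of 0.607 (range 0.101 to 0.796), and the 23 genes with peaks in all 4 WT libraries had 0.866 (0.232 to 1.17). Over all genes in the table the medians were 0.202 and 0.831. The 6 genes without a peak thus had a higher median than such genes in general. Bcor, Kdm5c and L3mbtl2 were the highest of the 6, with 0.756, 0.796 and 0.741, though the GC content of Kdm5c (47.0%) was under the limit for a CpG-rich promoter.

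Chromosome X carried 4 of the 55 genes, Rbbp7, Bcor, Kdm6a and Kdm5c, and none of them had an end peak in all 4 WT libraries. Over the 966 protein-coding genes on X the WT-only share by gene ends was 1.14%, against 22.7% of the 20921 genes elsewhere. Sperm of a male carry either an X or a Y, so X-linked DNA is present in part of the cells only, whereas every sperm carries the autosomes. Whether this moves the counts at the X-linked genes was not tested. Without X, 25 of 51 genes (49.02%) were WT-only.

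Where the strand is known, 109 of 115 WT end peaks (94.8%) lay at the start of the gene and 6 at the finish, those of Cbx8, Kmt2d and L3mbtl2. Over all genes the share at the start was 94.3%. Start here means the outer end of the gene, which at Tet3 is 15530 bp from the listed start. For genes with a listed start within 1 kb of the end, 70 of 105 peaks (66.7%) covered the start itself, against 63.0%, and 78 (74.3%) had their midpoint downstream of it, against 73.9%. The median midpoint was 205 bp into the gene, against 173 bp. The peaks of the listed genes were thus placed much like those of other genes. They were wider, with a median of 760 bp over 149 peaks against 630 bp.

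In 24 of the 25 genes with end peaks in all 4 WT libraries the peaks had bases in common, from 70 to 985 bp with a median of 408 bp. Of the 149 WT end peaks, 107 had a −log10 p of at least 4.73, the level at which the K49A 1 list stops, and in 12 of the 25 genes all 4 peaks did. The other peaks would not have been listed in K49A 1 at the same strength.

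Some end peaks are shared with a neighbour, so the gene they belong to is uncertain. Of the 46 genes with an end peak, 14 shared their best one with another protein-coding gene in at least 1 library. Among the 25 genes these were Ash1l with Dap3, Kdm5b with Mgat4e, Phf1 with Kifc5b, Rbbp4 with Zbtb8os and Setd1b with Rhof in all 4 WT libraries, Ring1 with H2-Ke6 in 3 and Bmi1 with Commd3 in 2. The other 18 of the 25 had no best end peak within 1 kb of an end of another protein-coding gene. Bodies of other genes, other kinds of gene and further end peaks were not examined. Both Kmt2d end peaks were shared with Prkag1, which lies past its finish.

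Peaks with their midpoint in the gene body were also counted. WT 1 to 4 had them in 35, 37, 43 and 49 of the 55 genes, against 31.2%, 44.4%, 47.6% and 53.5% of all protein-coding genes. K49A 1 had 1 and K49A 2 had 2, with backgrounds of 1.08% and 1.45%. By body peaks 27 genes (49.1%) were WT-only, against 21.4%. The listed genes are longer, with a median of 42409 bp against 17169 bp, and the part of length in this share was not tested.

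DNA methylation genes reached 4 of 8 in this body count, namely Dnmt3a, Tet1, Tet2 and Tet3. Body peaks away from the ends formed 63 separate regions in 28 genes, of which 9 were in all 4 WT libraries, 38 in 1 WT library only and 13 at a listed start. Most of these interior regions were listed in 1 library. They were not counted over all protein-coding genes, and the listed genes are longer, so the counts stand without a background.

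The only peaks of the 55 genes in K49A were in Jarid2 and Ash1l. Inside Jarid2, with a midpoint 138853 to 138882 bp from its outer start, a peak beginning at chr13:44869472 was listed in all 6 libraries, with the same first base in each and ends between 44869782 and 44869840. In WT 1 to 4 its fold was 12.4, 12.1, 12.8 and 15.9. In the K49A lists it was 7.98 and 7.20. Its −log10 q was 45.3, 53.3, 57.6 and 134 in the WT lists, and 18.7 and 23.4 in the others. These values come from lists of different lengths and are set side by side without a comparison. It stood at percentile 99.5 to 99.8 of the WT lists and at 87.6 and 90.5 of the K49A lists. In each WT list its fold was above that of every gene-end peak of the 55 genes, of which the highest was 5.23. It was apart from the Jarid2 end peaks, for which the K49A lists had no entry.

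In Ash1l, K49A 2 alone had a peak at chr3:88995948-88996172, with a fold of 2.81 and a −log10 q of 1.15. This is close to the end of that list, and no WT library had a peak there.

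Bases covered by peaks over the gene with 1 kb either side were also compared per gene. The median over the 55 genes was 854 bp for the WT mean, against 277 bp over all protein-coding genes. The span counted grows with the gene, and the listed genes are longer, with a median of 42409 bp against 17169 bp. The part of length in the covered bases was not tested. At Suz12 the values were 985, 1088, 1291 and 1389 bp in the WT lists, and 0 in both K49A lists. At Jarid2 they were 1286, 823, 915 and 1138 bp in the WT lists, with 311 and 357 bp in K49A, all of it the region shared by the 6 libraries.

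At Ash1l they were 827, 522, 1042 and 1654 bp in the WT lists, with 0 and 225 bp in K49A, so the groups did not overlap at any of these 3 genes. At 34 of the 55 genes (61.8%) no WT value overlapped a K49A value, and WT was the higher group, against 29.2% of all protein-coding genes. The part of gene length in this share was not tested either. A two-sided exact permutation test, which has 15 ways to divide 6 libraries into groups of 4 and 2, cannot give a p below 0.133 when the smaller one-sided p is doubled, as was done here. After Benjamini-Hochberg adjustment over 21887 genes the smallest p was 0.457. No gene had a p under 0.05, adjusted or unadjusted, which the design could not give.

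These differences move with the length of the lists. When every list was cut to its 700 strongest peaks, the length of the shortest, only Yaf2 of the 55 genes was still WT-only by its ends (1.82%, against 0.0685% of all protein-coding genes). At a −log10 q of at least 2 the count was 11 (20.0%, against 8.34%). Genotype and list length go together in these 6 libraries and cannot be told apart.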

How the data were processed

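MNase-seq peak lists of 4 WT and 2 K49A sperm libraries, as the authors deposited them, were analysed, with groups from the genotype labels. Per the submitters' processing notes, the tools were BWA, SAMtools, Picard, FastQC and the peak caller MACS2, on mm10. Their versions and settings, an input control and duplicate handling were not given in the sources used here. The authors' deposited columns hold a score, a −log10 p, a −log10 q and a fold enrichment (a ratio). The lists end at a q of 0.1. No read counts were used, so depth is unknown.

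Peaks were placed against a RefSeq gene table (GRCm38.p6, all 55 genes matched by symbol) with 1 bp of overlap within 1 kb of either gene end, or by midpoint in the body. The table has no strand, so starts came from the RefSeq promoter table. The best peak was that with the highest −log10 q. Covered bases were compared by an exact permutation test with Benjamini-Hochberg adjustment, tested on simulated data. Python 3.11.15, numpy 2.4.6 and pandas 2.3.3 were used.

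The rule for named genes took, in each group, up to 5 genes with end peaks in all 4 WT libraries and the highest mean percentile, every gene with a K49A peak, and every gene without an end peak. Other genes are given to account for the whole list. The members and lists were chosen with earlier results of these data known. Alternatives were window, gene end, q and p limits, list length, overlap, left-out libraries and a replicate block. Replicate numbers come from the titles, which the file names pair differently, so no pairing was assumed.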

Additional observations from a re-analysis of the deposited data

Results flagged for a closer look

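In 2 of the 30 groups of 4 WT values examined, one library stood apart from the rest by Dixon's criterion. Chance gives about 1 such case in 20 groups. WT 1 had an end peak at 7 of the 11 PRC2 genes, while the other WT libraries each had 10. WT 1 had an end peak at 8 of the 15 genes of H3K4 and H3K27 enzymes, while the others each had 11. WT 1 was the shortest WT list, with 11313 peaks against 20458 to 27903, and its part in these counts was not tested.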

How the results depend on the processing

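The count of genes that were WT-only by their ends (25) fell to 11 with peaks limited to a −log10 q of 2 or more, to 10 with a limit of 5 on −log10 p, and to 1 when every list was cut to 700 peaks. The mean count per WT library (37.25) fell to 23.75 at that p limit and to 3.25 in the cut lists. The body count (27) fell to 15, 14 and 1 under the q limit, the p limit and the cut. The count of genes whose covered bases did not overlap (34) fell to 1 in the cut lists. Fewer peaks enter under each of these settings. Windows of 500 bp and 2 kb, the start end alone, a larger overlap and the ends or any listed start kept the end count and the WT mean within 1.5 times, as did the larger overlap for the body count and the gene ends alone for covered bases, although the count for DNA methylation genes went from 2 to 1 at 500 bp. Leaving out 1 library at a time gave 25 to 33 genes for the class, 35.3 to 40.3 for the WT mean, 27 to 32 for the body and 34 to 40 for covered bases. The highest class count was without WT 1, where the share of all protein-coding genes was 32.4%. The K49A mean was 0 under all settings. With a replicate block over the numbers 1 and 2, the class held 27 genes, the WT mean was 33.5, the body count 29 and the count by covered bases 36. Titles and file names pair the libraries differently, so the block was not read as pairing. With no read counts, a peak missing from a list cannot be told from one just under its limit.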
